A study of Arabidopsis thaliana with 6 samples.

Results

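The genes described here are 31 core cell cycle and SIAMESE-related genes of Arabidopsis thaliana, out of 27444 nuclear protein-coding genes. They are 5 A-type cyclins, 6 B-type cyclins, 5 cyclin-dependent kinases (CDKs), the 6 genes RBR1, E2FA, E2FB, E2FC, DPA and DPB, and 9 inhibitors of the SIAMESE family. They were given as locus codes, and a peak was counted for a gene where its summit, the position of the peak's maximum, fell inside the gene or at most 3000 bp from it. By that rule 9 peaks belonged to the genes: 1 of 2620 in the list of replicate 1, 4 of 2143 in that of replicate 2 and 4 of 2127 in that of replicate 3.

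The peaks come from chromatin immunoprecipitation and sequencing of JAGGED (JAG), a C2H2 zinc finger transcription factor that promotes growth of petals and other lateral organs. The 3 JAG-GFP samples were jag-2 mutant plants carrying a genomic JAG fusion to green fluorescent protein (GFP) under the promoter of JAG itself, and the 3 wild-type samples were Landsberg erecta plants without the tag, which give the background of the anti-GFP beads. Every sample was 1300 to 1500 mg of inflorescence apices with unopened buds, grown in 16 h of light, and chromatin was sheared to about 500 bp. The tissue mixes many cell types, so binding in few cells and weak binding in many cannot be told apart, and the labels do not say whether each replicate had plants of its own, so variation from list to list may be technical. Each peak carries a score deposited by the authors, whose scale is not known. Peak coordinates are those of the lists, on the build TAIR10, and distances were taken to gene spans of TAIR10.1. The score is given here with its percentile, the share of peaks of the same list that score lower, with ties at their middle rank. The list of replicate 3 ends on chromosome 1 at position 23827070, before CYCA2;4 and CDKB2;1, so 29 of the 31 genes could be in all 3 lists. The JAG locus had the highest score of the lists of replicates 1 and 2, and it too lies past that end. Its peaks were 10167 and 12034 bp wide, and only the JAG-GFP plants carry the genomic JAG fusion. What that fusion adds to the score was not tested.

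Cyclins bind and activate CDKs, and the kinase complexes drive cells through the cycle. A-type cyclins act from DNA replication to the start of mitosis, B-type cyclins act at mitosis, CDKA;1 is the plant counterpart of the yeast Cdc2 kinase, and B-type CDKs are plant kinases of the entry into mitosis. RBR1, the retinoblastoma protein of plants, holds back E2F factors, which pair with DPA or DPB to switch on genes of DNA replication. SIAMESE (SIM) and its relatives inhibit CDK complexes and move cells from division to endoreduplication, in which DNA is copied without mitosis. SIM does so in leaf hairs, and LGO in the giant cells of the sepal.

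No gene of the 29 had a summit in all 3 lists, beside 6.73% of the 25681 protein-coding genes that all 3 lists cover. CYCA2;1 and AT5G40460, which is listed with the SIAMESE family, had a summit in 2 lists. CYCA2;3, CYCA2;4, CYCB2;1, LGO and SMR4 had a summit in 1 list. Together 7 of 31 genes (22.6%) had a summit in at least 1 list, close to the 26.0% of all protein-coding genes, and 2 of 31 (6.45%) had a summit in at least 2 lists, beside 12.9% of all genes. By list, 1 gene was found in replicate 1, where the share of all genes was 17.4%, 4 genes in replicate 2 (14.1% of all genes) and 4 in replicate 3 (14.6% of all genes covered). The list with the most peaks thus held the fewest near these genes. No p-value is given, because the genes were chosen with earlier results of these data known.

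By class, the counts stand beside the same 26.0% of all genes with a summit in at least 1 list. Of the A-type cyclins 3 of 5 had a summit in at least 1 list, of the B-type cyclins 1 of 6, of the SIAMESE family 3 of 9, of the CDKs 0 of 5 and of the RBR1, E2F and DP genes 0 of 6. The classes hold 5 to 9 genes each, so 1 gene shifts a share widely, and differences between classes were not tested. Median gene length was 2406 bp for the 31 genes and 2078 bp for all genes. By class it ran from 820 bp for the SIAMESE family to 3417.5 bp for the RBR1, E2F and DP genes, so the spans searched were unequal. The median number of other protein-coding genes in the window was 2 for the 31 genes and for all genes.

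**Figure D1:**
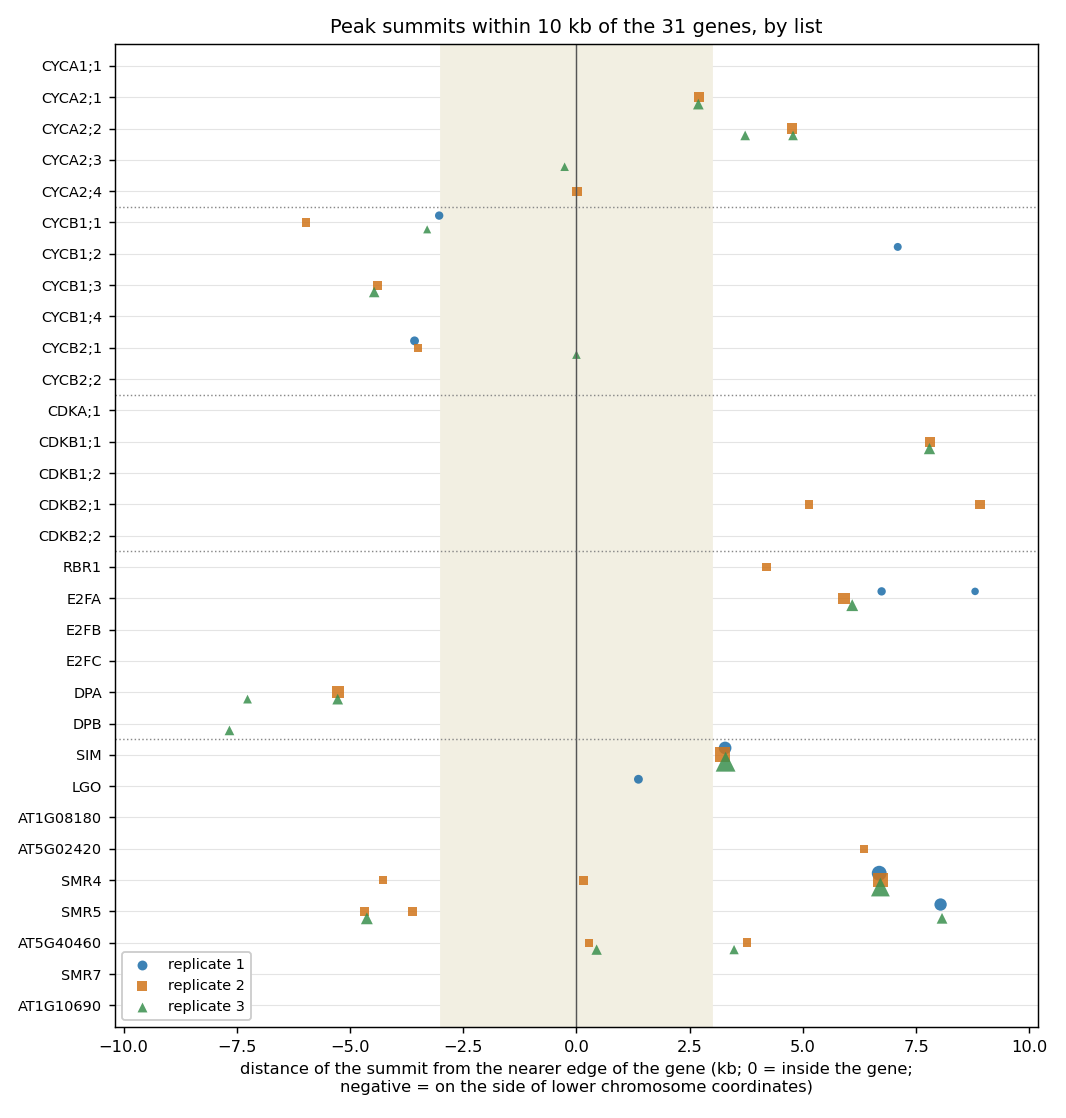
Peak summits within 10 kb of the 31 genes. Each row is a gene, dotted lines part the classes, the horizontal axis gives the distance in kb from the nearer edge of the gene, the shaded band marks 3 kb on both sides, marker shape and colour give the list, and marker area grows with the authors' score. The markers of all 3 lists stand together at SIM just outside the band and at SMR4 and, less tightly, E2FA farther out. No row has markers of all 3 lists inside the band.

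Among the A-type cyclins, CYCA2;1 (AT5G25380) was the gene with a summit within 3000 bp in more than 1 list. Its peak lay on chromosome 5 from 8820423 to 8820973 in replicate 2, where it scored 2.23, and from 8820397 to 8820871 in replicate 3, where it scored 2.30. The summits were 7 bp apart, 2699 and 2692 bp past the higher-coordinate end of the gene. In replicate 1 the nearest summit was 39447 bp away. The site does not lie next to CYCA2;1 alone: both summits fell in the body of SHN3 (AT5G25390), an AP2-domain transcription factor gene known for cuticle formation, and AT5G25400 was also slightly nearer, at 2590 and 2597 bp. The scores stood at percentiles 66.6 and 65.7 of their lists.

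CYCA2;3 (AT1G15570), known to restrain endoreduplication, had a peak in replicate 3 on chromosome 1 from 5361080 to 5361896 that scored 2.00, at percentile 31.7. Its summit was 261 bp before the lower-coordinate end of the gene, and CYCA2;3 was the nearest gene. In replicates 1 and 2 the nearest summits were 15071 and 22308 bp away, so the site was seen in a single list. CYCA2;4 (AT1G80370), a close relative, had a peak in replicate 2 on chromosome 1 from 30216410 to 30217252 that scored 2.10, at percentile 54.5. Its summit lay 11 bp past the end of CYCA2;4 and 3 bp from the neighbouring gene AT1G80380, in the space between them. The list of replicate 1 had its nearest summit 26189 bp away, and that of replicate 3 does not reach the gene.

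The remaining A-type cyclins had no summit within 3000 bp. CYCA2;2 (AT5G11300) had overlapping peaks in replicates 2 and 3, with scores of 2.33 and 2.15 and summits 4760 and 4783 bp away. Those summits were nearest to YUC4, which encodes an auxin synthesis enzyme, at 1137 and 1114 bp. Another peak of replicate 3, with a score of 2.15, was 3726 bp from CYCA2;2. AT5G11310 and YUC4 were nearer to it, at 448 and 2171 bp. CYCA1;1 (AT1G44110), which is expressed in dividing cells, had its nearest summits 21217, 21398 and 21388 bp away in replicates 1, 2 and 3.

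Of the B-type cyclins, CYCB2;1 (AT2G17620) was the one gene of the 31 with a summit inside its own body. That peak, in replicate 3, spanned chromosome 2 from 7666129 to 7666773 and scored 2.00, at percentile 31.7. Replicates 1 and 2 had no peak there. Instead they shared a site on the other side of the gene, with scores of 2.04 and 1.94 and summits 3575 and 3500 bp away, 75 bp from each other. No protein-coding gene was nearer to that site, though the pseudogene AT2G17610 was, at 466 and 541 bp. Each list thus had a summit within 4000 bp of CYCB2;1, but not at the same place.

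CYCB1;1 (AT4G37490), widely used as a marker of cells about to divide, lay just outside the limit. Its peaks in replicates 1 and 3 overlapped, with scores of 1.98 and 1.94 and summits 3031 and 3296 bp away, and 4 other genes were nearer, with KAI2 the nearest. Both peaks reached to within 3000 bp of CYCB1;1, though their summits did not. In replicate 2 the nearest summit was 5978 bp away. CYCB1;3 (AT3G11520) had overlapping peaks in replicates 2 and 3, with scores of 2.03 and 2.28, 4386 and 4466 bp away. There too 4 other protein-coding genes were nearer, with AT3G11500 the nearest at 62 and 142 bp. Both summits also fell in AT3G02425, which the gene table lists as a long non-coding RNA. For CYCB1;2, CYCB1;4 and CYCB2;2 the closest summit of any list was 7095, 12573 and 11168 bp away.

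Every CDK gene lay more than 5000 bp from the summits of all lists that cover it. CDKA;1 (AT3G48750), the kinase active throughout the cycle, had its nearest summits at 17848, 17835 and 33008 bp in replicates 1, 2 and 3. CDKB1;2 (AT2G38620) had them at 21111, 21119 and 21161 bp. CDKB2;2 (AT1G20930) had them at 25770, 26007 and 18978 bp. CDKB1;1 (AT3G54180), which works with CYCA2 cyclins, had summits of replicates 2 and 3 at 7813 and 7796 bp, with scores of 2.18 and 2.40. These lay between AT3G54210 and SCR, a regulator of root tissue patterning, each under 1000 bp away. CDKB2;1 (AT1G76540) had its nearest summits at 10545 and 5141 bp in replicates 1 and 2.

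The RBR1, E2F and DP genes had no summit within 3000 bp in any list. RBR1 (AT3G12280) came closest, with a peak of replicate 2 at 4197 bp and a score of 1.96, whose summit lay in the gene AT3G12320. In replicates 1 and 3 the nearest summits were 37006 and 34270 bp from RBR1. E2FA (AT2G36010), an activator of DNA replication genes, had peaks of all 3 lists that overlapped, with scores of 1.98, 2.38 and 2.50 in replicates 1, 2 and 3. Their summits were 6739, 5910 and 6090 bp away, up to 829 bp apart. AT2G36026 was the nearest protein-coding gene, and in replicates 1 and 3 the pseudogene AT2G36040 was nearer, at 723 and 1372 bp. DPA (AT5G02470) had summits of replicates 2 and 3 that were 1 bp apart, 5271 and 5272 bp away, with scores of 2.47 and 2.31. AT5G02460 was the protein-coding gene nearest to them, at 2202 and 2203 bp. The long non-coding RNA AT5G00850 was nearer still, at 1791 and 1790 bp. The closest summit to DPB was 7662 bp away, in replicate 3. E2FB (AT5G22220), an activator of division, and E2FC (AT1G47870), a repressor, were the farthest of the 31 genes from any summit, at 41891 and 49140 bp.

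Among the SIAMESE family, AT5G40460 had a site in 2 lists at which it was the nearest gene. The peak spanned chromosome 5 from 16202940 to 16204009 in replicate 2, where it scored 1.89, and from 16203548 to 16204057 in replicate 3, where it scored 2.25. The summits lay 276 and 446 bp past the higher-coordinate end of the gene, 170 bp from each other. The score of replicate 2 was the lowest of that list, shared with other peaks (percentile 5.8), and that of replicate 3 stood at percentile 62.3. A further pair of overlapping peaks in the same 2 lists, with scores of 2.00 and 2.10, had summits 3768 and 3481 bp away. These summits were nearer to AT5G40470 and to the long non-coding RNA AT5G06075 than to AT5G40460. In replicate 1 the nearest summit was 34016 bp away.

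LGO (AT3G10525) was the gene found in the list of replicate 1. Its peak spanned chromosome 3 from 3282692 to 3283711 and scored 2.04, at percentile 49.7, and its summit was 1369 bp past the higher-coordinate end of LGO and 1450 bp from AT3G10527. The nearest summits of replicates 2 and 3 were 14124 and 13700 bp away, so neither list held that site. SMR4 (AT5G02220) had a peak in replicate 2 from 442154 to 442650 on chromosome 5 that scored 2.08, at percentile 51.1. Its summit was 159 bp past the gene, which was the nearest, and replicates 1 and 3 had no peak there.

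SIM (AT5G04470), which gives the family its name, had a site of all 3 lists a little past the limit of 3000 bp. The peak spanned chromosome 5 from 1270505 to 1271366 in replicate 1, from 1270477 to 1271260 in replicate 2 and from 1270442 to 1271258 in replicate 3. Its scores were 2.64, 3.07 and 4.34 in the same order, at percentiles 90.7, 94.3 and 98.3. The summits were 3283, 3233 and 3294 bp past the higher-coordinate end of SIM and at most 61 bp apart. Of the protein-coding genes AT5G04480 was nearer, at 806, 856 and 795 bp, and SIM was the next. The summits also fell in AT5G00335, which the gene table lists as a miscellaneous RNA. By the rule SIM therefore counts as a gene without a peak, although its site stood at higher percentiles than all 9 peaks inside the window.

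SMR4 had another site of all 3 lists, on chromosome 5 from 448558 to 450391 in replicate 1, from 448565 to 449175 in replicate 2 and from 448579 to 449208 in replicate 3. Its scores were 3.08, 3.02 and 4.06, at percentiles 96.9, 93.4 and 97.6, and its summits were 6686, 6713 and 6712 bp from SMR4. They lay in the body of AT5G02230, so other genes were nearer. SMR5 (AT1G07500), which is induced when DNA is damaged, had overlapping peaks of replicates 2 and 3 at 4681 and 4628 bp with scores of 2.13 and 2.50. It also had peaks of replicates 1 and 3 at 8041 and 8073 bp with scores of 2.58 and 2.31. Other genes were nearer at both sites: AT1G07480 at the first, 541 and 594 bp away, and SCL14 at the second, 509 and 477 bp away. For AT1G08180, AT5G02420, SMR7 and AT1G10690, the closest summit of any list was 15470, 6351, 14372 and 19632 bp away.

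**Figure D2:**
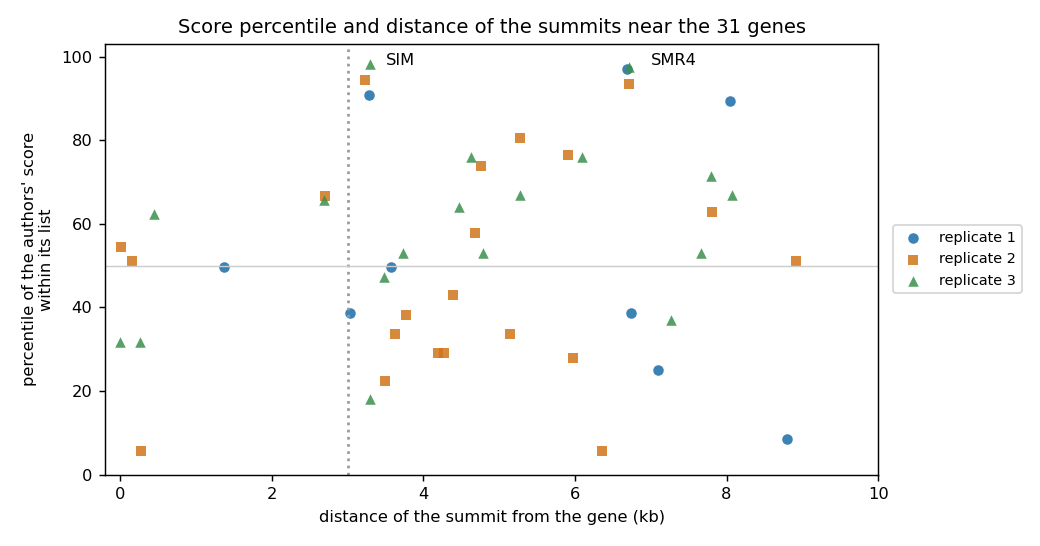
Percentile of the authors' score within its list, on the vertical axis, against the distance of the summit from the gene in kb, for every summit within 10 kb of the 31 genes. Marker shape and colour give the list, the dotted line marks 3 kb and the grey line the middle of each list. The 9 summits within 3 kb reach percentile 66.6, and the 6 at or above percentile 90 are the sites at SIM and SMR4.

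The 9 peaks inside the window had scores at percentiles 5.8 to 66.6 of their lists. They ranged from 1.89 to 2.30 with a median of 2.08, at a median percentile of 51.1, and 5 of them stood above percentile 50. Their median width was 645 bp, beside medians of 1032.5, 982 and 976 bp for all peaks of replicates 1, 2 and 3. A further 39 peak-to-gene pairs lay past 3000 bp and within 10000 bp, at a median percentile of 53.0. Among the 29 genes, SIM, SMR4 and E2FA (10.3%) had a site within 10000 bp where peaks of all 3 lists overlapped, beside 16.3% of all genes covered.

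At the limit of the rule, the genes inside whose nearest summits were farthest were CYCA2;1, LGO and AT5G40460, with 2692, 1369 and 276 bp to the closest summit of any list. Those outside with the closest summits were CYCB1;1, SIM and SMR5, with 3031, 3233 and 3622 bp. Counts changed with the width of the window.

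The 29 genes covered by all lists were therefore set beside all covered genes at each width. For at least 1 list, 3.45% of them had a summit in the gene body, beside 5.65% of all genes, 13.8% had one within 500 bp, beside 12.3%, and 13.8% within 1000 bp, beside 15.7%. Within 4000 bp it was 34.5%, beside 30.7%, within 5000 bp 41.4%, beside 35.3%, and within 10000 bp 62.1%, beside 51.9%. These shares stood on both sides of those of all genes. For at least 2 lists the share was 0% in the gene body, beside 1.84%, 3.45% within 500 bp, beside 4.77%, and 3.45% within 1000 bp, beside 6.82%. It was 17.2% within 4000 bp, beside 16.0%, 27.6% within 5000 bp, beside 19.1%, and 41.4% within 10000 bp, beside 32.5%. For all 3 lists it was 6.90% within 4000 bp (SIM and CYCB2;1), beside 8.61%, 6.90% within 5000 bp, beside 10.5%, and 20.7% within 10000 bp, beside 19.9%. The shares in at least 2 lists were thus lower than those of all genes up to 3000 bp and higher from 4000 bp on. The width of 4000 bp was added after the site at SIM had been seen. Those shares rest on few of the 29 genes, 1 at 500 bp, 2 at 3000 bp and 5 at 4000 bp. At 500 and 4000 bp they stood close to the shares of all genes, and the differences were not tested. Among all 31 genes, 1 had a summit in at least 2 lists when the highest-scoring 50% of each list was used, beside 6.62% of all genes, and 1 when the gene had to be the nearest to the summit, beside 5.96%.

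**Figure D3:**
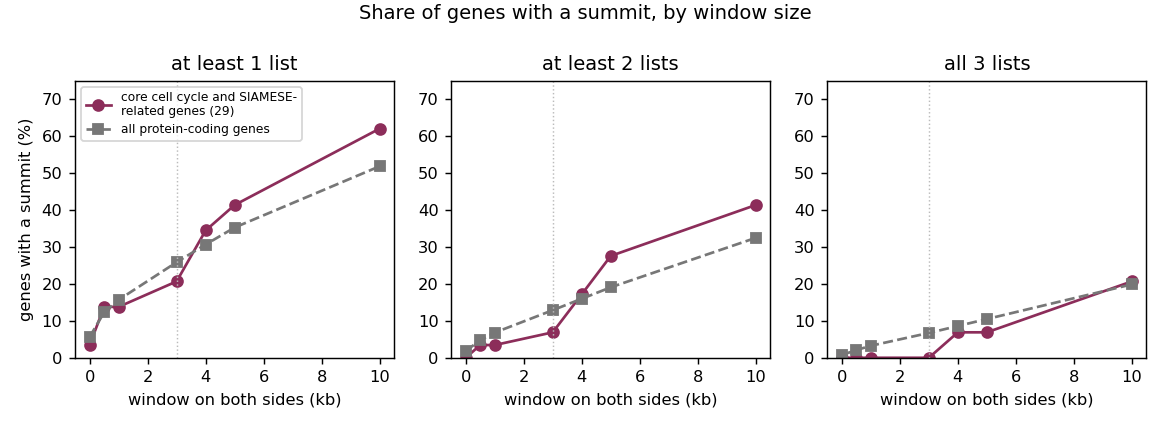
Share of genes with a summit, in percent, against the window on both sides of the gene in kb, for at least 1 list, at least 2 lists and all 3 lists. Circles give the 29 core cell cycle and SIAMESE-related genes that all lists cover and squares all 25681 protein-coding genes covered. At 3 kb, marked by the dotted line, the circles stand at 20.7%, 6.90% and 0%, below the squares at 25.9%, 12.9% and 6.73%.

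The distance from a gene to its nearest summit does not depend on the window. Its median over the 31 genes was 21111 bp in replicate 1, beside 15194.5 bp for all genes, and 7813 bp in replicate 2, beside 19096.5 bp. In replicate 3 it was 10979 bp over 29 genes, beside 17921 bp. The genes were thus farther than the typical gene in one list and nearer in the other two. The A-type cyclins had the smallest medians in replicates 2 and 3, at 4760 and 3209 bp, but a median of 26189 bp in replicate 1. The RBR1, E2F and DP genes had the largest in all 3 lists, at 45775, 32410.5 and 20966 bp. Over all lists, 11 of 31 genes (35.5%) lay more than 10000 bp from every summit, beside 47.6% of all genes.

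**Figure D4:**
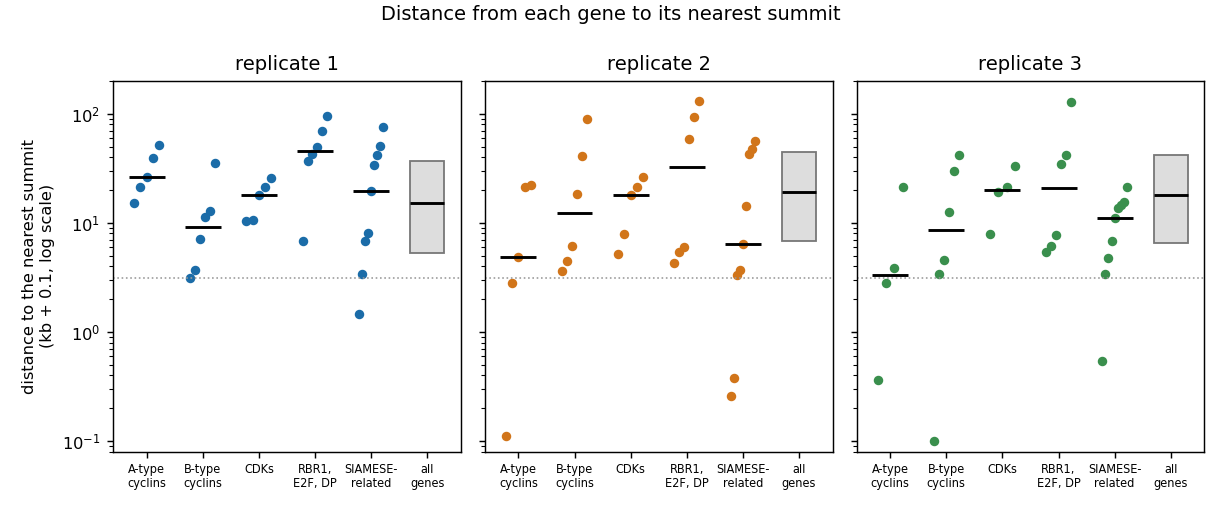
Distance in kb from each gene to its nearest summit, on a log axis after adding 0.1 kb, in the lists of replicates 1, 2 and 3. Points are genes of the 5 classes with their median as a bar, the grey box gives the middle 50% of all protein-coding genes with their median, and the dotted line marks the limit of 3 kb. Points below the dotted line are the genes counted by the rule: 1 in replicate 1, 4 in replicate 2 and 4 in replicate 3.

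For the rest of the pathway, 42 related genes were listed by class. All 3 lists had a summit inside the gene or at most 3000 bp from it for 7 of the 37 covered (18.9%), beside 6.73% of all genes, and the list was not tested. They were the inhibitor genes KRP2, KRP3, KRP4 and KRP7, which encode another family of CDK inhibitors, and the D-type cyclins CYCD3;2, CYCD3;3 and CYCD4;1, which promote entry into the cycle. KRP3 scored 1.88, 1.89 and 2.10, while KRP4 scored 7.44, 7.22 and 9.07 at its highest peak in replicates 1, 2 and 3. The peaks of the lists did not all overlap at KRP3. CDKD;1, which encodes a kinase that activates CDKs, had scores of 1.98 and 2.13 in replicates 1 and 2, which are the lists that reach it. In at least 1 list, 7 of 7 KRP genes and 5 of 10 D-type cyclins had a summit within 3000 bp, beside 26.0% of all genes. For the other classes it was 3 of 8 further A- and B-type cyclins, 2 of 7 CDK regulators and 1 of 4 MYB3R factors. MYB3R factors control mitotic genes. These class counts are small and were not tested. The 3 DEL factors and the 3 activators of the anaphase-promoting complex had a summit in no list within 3000 bp.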

How the data were processed

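Titles put 3 samples in the JAG-GFP group and 3 in the wild-type group, and the data analysed were 3 peak lists numbered like the replicates. Chromosome, start, end, width, summit and score are given for each peak, per the file headers. The score is the authors' deposited value. The peak caller, its threshold and the use of the wild-type samples are not given in the sources used. The submitters' processing notes name CASAVA 1.8 and the build TAIR10. Read depth is unknown, so no detection limit is given.

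Gene spans and names came from the RefSeq table of TAIR10.1, which names all 31 loci by code and 27 by the family names used here. None of its coordinates is printed. It has no strand, so sides are given by coordinate, and no sequence was used. Distances were computed with Python 3.11.15, numpy 2.4.6 and pandas 2.3.3 and checked on simulated peaks. Shares are set beside those of all 27444 nuclear protein-coding genes, or the 25681 that start before the end of the replicate 3 list on chromosome 1.

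The genes and lists were chosen with earlier results of these data known. Named are all members with a summit within 3000 bp, the 3 genes on either side of that limit, and related genes found in every list that covers them. The other genes are given with their class. Windows, score limits, overlap rules and leaving out lists were tried as alternatives.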

Additional observations from a re-analysis of the deposited data

How the results depend on the processing

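The count of genes with a summit in at least 1 list was 7. It became 1 with gene bodies alone, 11 at 4000 bp, 13 at 5000 bp and 20 at 10000 bp, and 5 to 6 when a list was left out. Where any part of a peak could lie within 3000 bp it was 8, beside 28.9% of all genes. The count for at least 2 lists was 2. It became 0 with gene bodies alone, 1 at 500 bp, 1 at 1000 bp, 5 at 4000 bp, 8 at 5000 bp and 12 at 10000 bp. It also became 1 with the highest-scoring 50% of each list, where the member had to be the nearest gene, and where peaks had to overlap by 50% of the longer one. Where any part of a peak could lie within 3000 bp it was 3, beside 14.7% of all genes. The 2 genes counted by summit rest on replicates 2 and 3: leaving out replicate 2 or 3 gave 0, and leaving out replicate 1 gave 2. The count for all 3 lists was 0. It became 2 at 4000 bp, 2 at 5000 bp and 6 at 10000 bp, and ranged from 0 to 2 for both remaining lists when a list was left out. For related genes the count of 7 became 2 with gene bodies alone and 3 with an overlap of 50%, and ranged from 7 to 9 without a list. The windows of 4000 and 10000 bp were chosen after the data were seen. A window by strand was not run because the gene table has no strand. No paired analysis was possible because the results come from no test. Without reads, a gene without a peak is not shown to be unbound.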

Other observations

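AT5G40460 lies within 50 kb of a peak that ranked 2nd in each list, with scores of 7.84, 7.42 and 8.77 in replicates 1, 2 and 3. Its summits were 34016, 34002 and 33999 bp from AT5G40460, and the nearest gene was AT5G40540. In replicate 1 this was the summit nearest to AT5G40460. The single summit of replicate 1 between CYCA3;2 and CYCA3;3, at 458 and 304 bp from the 2 cyclin genes and with a score of 1.88, counts for both.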
